A study of Mus musculus with 8 samples.

Results

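The genes described here are 8 members of 3 multicopy families whose transcripts accumulate when the mouse embryo begins to transcribe its own genome: Pramel6, Pramel7 and Pramel17, the deubiquitinase gene Usp17lc, the translation initiation factor gene Eif1a, and its relatives Gm2022, Gm5662 and Gm8300. They were chosen by name, and each was represented by the brightest probeset annotated to that symbol alone. All 8 were found among 14995 genes with such a probeset, and all 8 had a mean above the level of log2 2.07 that a gene needed to be tested, among 11444 genes. RNA came from pools of 2-cell embryos, 26 on average, flushed from the oviducts of superovulated C57BL/6 females 46 to 48 hours after hCG. The fathers were C57BL/6 males (3 arrays), males carrying a KDM1A transgene (KDM1A TG, 3 arrays), or nonTG males, which are littermates of the transgenic males without the transgene (2 arrays). KDM1A is a histone demethylase, and the comparisons address whether the sire's kind is reflected in the RNA of his 2-cell offspring. All mothers were C57BL/6 and received 5 IU of each gonadotropin. The labels give neither the promoter of the transgene, nor the embryos' own genotype, nor whether pools of a group had different fathers. Each p-value therefore reflects variation among the pools alone, part of which may be technical, and the number of arrays limits the precision.

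Zygotic genome activation in the mouse has its major wave at the 2-cell stage, when a set of multicopy gene families is switched on for a short time while maternal transcripts inherited from the oocyte decay. Pramel genes encode leucine-rich repeat proteins related to the human tumour antigen PRAME, some of which act as substrate receptors of cullin ubiquitin ligases. Usp17lc, also called Dub2, belongs to a family of ubiquitin-specific proteases that remove ubiquitin from proteins. Eif1a encodes a factor that helps the small ribosomal subunit scan for a start codon, and the clustered Eif1a-like genes are among the transcripts associated with the 2-cell stage.

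Promoter windows of build GRCm38.p6 were searched for 4 of the 8 genes, Pramel6, Pramel7, Pramel17 and Usp17lc. Eif1a, Gm2022, Gm5662 and Gm8300 were not searched. The 250 bases upstream of the start are shown for Pramel6, Pramel7 and Usp17lc, the genes whose nonTG values lay farthest below those of C57BL/6. The windows lie at chr2:87506315-87506564 on the plus strand, chr2:87492419-87492668 on the minus strand and chr7:103416446-103416695 on the plus strand. Each is written 5′ to 3′ along its gene. Capitals mark TATAAA, the core of a TATA box, and CCAAT, or its complement ATTGG, the core of a CCAAT box.
Pramel6: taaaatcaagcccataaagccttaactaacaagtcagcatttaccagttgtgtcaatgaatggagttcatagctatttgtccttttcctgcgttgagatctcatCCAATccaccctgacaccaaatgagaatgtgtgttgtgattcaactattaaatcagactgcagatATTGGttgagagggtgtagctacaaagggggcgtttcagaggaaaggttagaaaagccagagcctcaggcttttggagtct
Pramel7: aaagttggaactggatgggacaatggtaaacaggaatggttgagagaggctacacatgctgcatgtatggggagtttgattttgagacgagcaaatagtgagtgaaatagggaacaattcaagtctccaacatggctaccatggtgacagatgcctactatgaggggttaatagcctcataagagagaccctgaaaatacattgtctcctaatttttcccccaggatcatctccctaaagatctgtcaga
Usp17lc: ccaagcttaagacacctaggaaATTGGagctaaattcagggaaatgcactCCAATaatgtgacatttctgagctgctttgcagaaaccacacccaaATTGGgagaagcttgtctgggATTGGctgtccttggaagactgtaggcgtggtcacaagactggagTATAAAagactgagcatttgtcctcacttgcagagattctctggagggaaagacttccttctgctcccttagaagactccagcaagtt

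The letters CCAAT, searched on both strands, occur in 33.8% of all 32851 windows of this length, and TATAAA, which overlaps no CCAAT match here, in 12.4%. Usp17lc holds 4 CCAAT matches, beginning 228, 200, 154 and 133 bases before the start, and TATAAA 88 bases before it. Pramel6 holds 2 CCAAT matches, at 146 and 81 bases, and Pramel7 holds neither motif. The bicoid-type homeobox core TAATCC (6.25% of windows), the orphan nuclear receptor site AAGGTCA (4.08%) and the double homeobox site of Dux (0.0304%) were also searched on both strands. Of these, only TAATCC was found in a searched member, once in Pramel17, 66 bases before the start. Pramel6 and Pramel7 are direct neighbours in the RefSeq gene table, with 0 genes between them, and they are transcribed in opposite directions, away from each other. Gm8300, Gm2022 and Gm5662 lie in one cluster of 1 chromosome, with 19 genes listed between Gm8300 and Gm2022 and 33 between Gm2022 and Gm5662.

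The array columns had medians of log2 2.73 to 2.86. KDM1A TG replicates 1 and 3 stood apart by their wider spread of values, with interquartile ranges of 2.38 and 2.6 against 1.87 to 2.09 in the other 6 arrays. Kdm1a had no probeset carrying its symbol alone, and its level was not used to check the groups. Of 24 named genes of 2-cell activation outside the 3 families, such as the Zscan4 genes and Dppa4, 22 lay above the filter level, as did 15 of 16 maternal oocyte genes. All 15 named oviduct epithelial markers and all 12 stromal and muscle markers were also above the filter level. So were all 5 cumulus and granulosa markers and all 8 blood and immune markers that had a probeset of their own. These lists held 12 and 10 markers, and the lists of 2-cell, maternal and oviduct genes held 28, 22 and 16, so the rest could not be read. The filter level was passed by 11444 of 14995 genes, so passing it does not by itself show that a tissue was present. The mean of the oviduct markers was 5.30, 5.94 and 5.15 in the C57BL/6 arrays, 6.32, 5.47 and 6.22 in KDM1A TG and 6.02 and 5.93 in nonTG. The stromal mean ran from 3.73 to 4.75 in C57BL/6, from 4.85 to 6.37 in KDM1A TG and from 4.12 to 5.69 in nonTG. The cumulus mean ran from 2.36 to 3.03, around the array medians, and the blood mean from 3.0 to 4.77 over the 8 arrays. In bulk pools, fewer embryonic cells and less RNA of a gene per cell cannot be told apart.

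**Figure D1:**
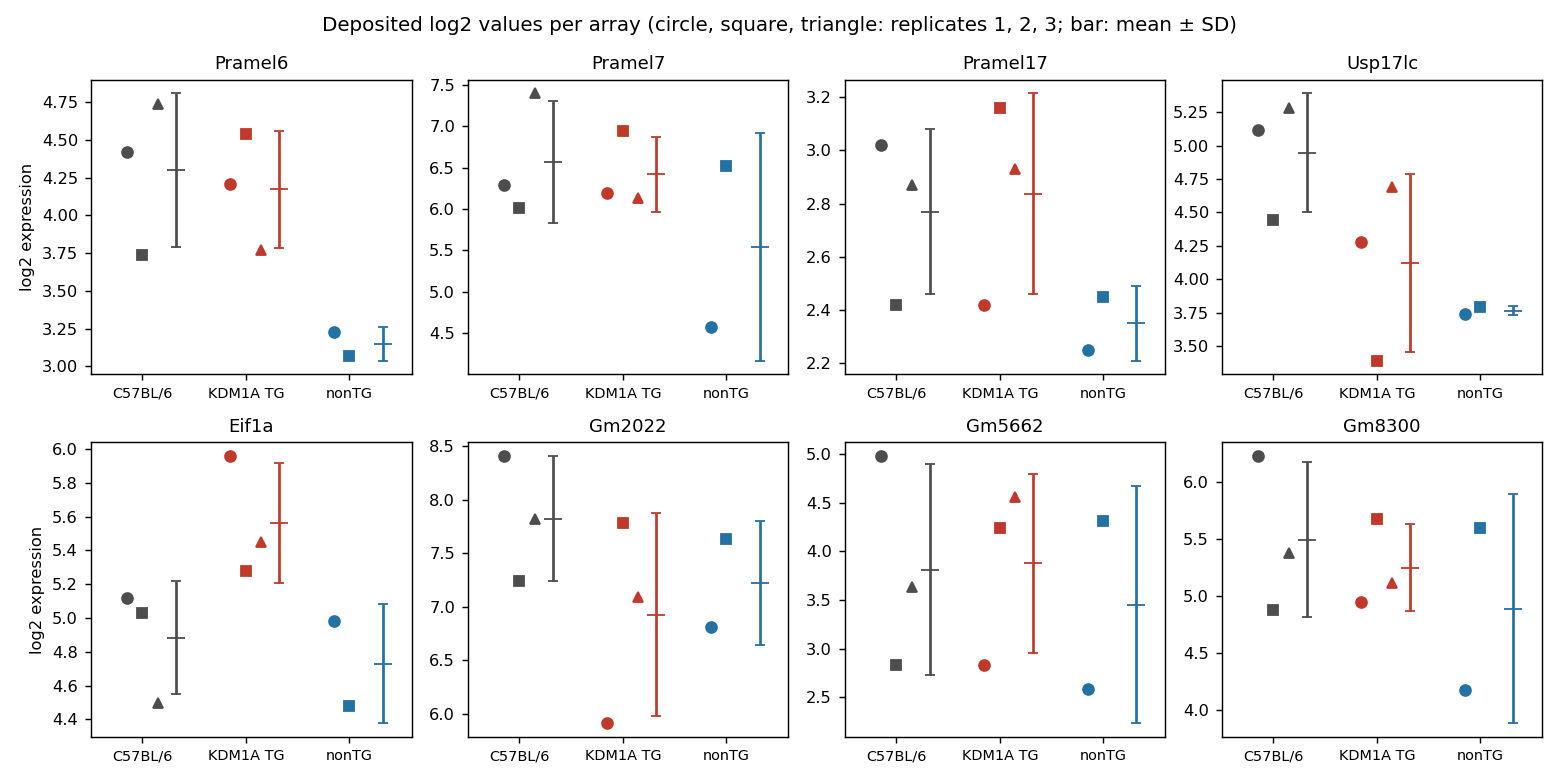
Deposited log2 expression values of the 8 genes (vertical axis, a separate scale for each gene) in the 3 sire groups (horizontal axis). Points are single arrays, with circle, square and triangle for replicates 1, 2 and 3, and bars give mean ± SD. Both nonTG arrays lie under all C57BL/6 arrays for Pramel6 and Usp17lc, and for Eif1a all KDM1A TG arrays lie above the other groups.

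The 3 Pramel members were lowest on average in the nonTG pools. Pramel6, which with Pramel7 is known from embryonic stem cells as a promoter of the naive pluripotent state, had log2 values of 4.42, 3.74 and 4.74 in C57BL/6, 4.21, 4.54 and 3.77 in KDM1A TG, and 3.23 and 3.07 in nonTG. Both nonTG arrays lay below all 6 others, while the C57BL/6 and KDM1A TG arrays overlapped. The nonTG mean of 3.15 ± 0.11 (SD, n = 2) stood 2.22-fold below the C57BL/6 mean of 4.30 ± 0.51 (SD, n = 3), a log2 change of -1.15 (95% interval -1.89 to -0.42, limma adjusted p = 0.231). Against nonTG the KDM1A TG mean was 2.04-fold higher (log2 change 1.03, interval 0.29 to 1.76, limma adjusted p = 0.591). Neither difference passed the threshold of 0.05 after adjustment over all genes. With the mean of the oviduct markers in the model the nonTG change from C57BL/6 was -0.70.

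Pramel7, which promotes degradation of the DNA methylation cofactor UHRF1 in stem cells, had log2 values of 6.29, 6.01 and 7.40 in C57BL/6, 6.19, 6.94 and 6.13 in KDM1A TG, and 4.57 and 6.52 in nonTG. Here 1 array was low, nonTG replicate 1, and nonTG replicate 2 lay inside the range of both other groups. The log2 change of nonTG from C57BL/6 was -1.02 (interval -1.83 to -0.22, limma adjusted p = 0.419), and it was -0.05 without nonTG replicate 1 and -2.0 without nonTG replicate 2. With the oviduct term it was -0.38. Pramel17 values were 3.02, 2.42 and 2.87 in C57BL/6, 2.42, 3.16 and 2.93 in KDM1A TG, and 2.25 and 2.45 in nonTG, so all 3 groups overlapped. Its largest difference was that of KDM1A TG from nonTG, 0.49 on the log2 scale (interval -0.24 to 1.21, limma adjusted p = 0.847). Between KDM1A TG and C57BL/6 the 3 Pramel members differed by -0.12 (Pramel6, interval -0.78 to 0.53), -0.15 (Pramel7, interval -0.87 to 0.57) and 0.07 (Pramel17, interval -0.58 to 0.71).

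Usp17lc had log2 values of 5.12, 4.44 and 5.28 in C57BL/6, 4.28, 3.39 and 4.69 in KDM1A TG, and 3.74 and 3.79 in nonTG. The nonTG arrays lay below all C57BL/6 arrays and close to each other, and KDM1A TG spread from below the nonTG values up into the C57BL/6 range. NonTG stood 2.27-fold below C57BL/6 (means 3.76 ± 0.04, SD, n = 2, and 4.95 ± 0.45, SD, n = 3), with a log2 change of -1.18 (interval -1.93 to -0.43, limma adjusted p = 0.224). KDM1A TG stood 1.77-fold below C57BL/6 with a log2 change of -0.82 (interval -1.49 to -0.16, limma adjusted p = 0.255). This change was -0.46 without KDM1A TG replicate 2, the lowest array. With the oviduct term the Usp17lc change from C57BL/6 was -0.95 in KDM1A TG and -1.30 in nonTG. Both comparisons share the C57BL/6 arrays. KDM1A TG and nonTG differed by 0.36 (interval -0.39 to 1.1, limma adjusted p = 0.865).

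Eif1a was the only member whose KDM1A TG arrays lay above all arrays of both other groups. Its log2 values were 5.96, 5.28 and 5.45 in KDM1A TG, against 5.12, 5.03 and 4.5 in C57BL/6 and 4.98 and 4.48 in nonTG. The C57BL/6 and nonTG arrays overlapped. The KDM1A TG mean of 5.57 ± 0.35 (SD, n = 3) was 1.60-fold above that of C57BL/6 (log2 change 0.68, interval 0.03 to 1.33, limma adjusted p = 0.335) and 1.78-fold above that of nonTG (log2 change 0.83, interval 0.11 to 1.56, limma adjusted p = 0.77). The median of all genes was itself 0.18 above C57BL/6 in KDM1A TG. Quantile normalization brought this median to 0.09 and the Eif1a change to 0.40, and cyclic loess brought them to 0.07 and 0.34. With the mean of the oviduct markers in the model, the Eif1a change was 0.39. With array weights it was 0.77 and passed (limma adjusted p = 0.0497), in a fit that called 1694 of 11444 genes, 1469 of them higher.

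The clustered Eif1a-like genes did not share this pattern. Gm2022 had log2 values of 8.41, 7.24 and 7.82 in C57BL/6, 5.91, 7.78 and 7.09 in KDM1A TG, and 6.81 and 7.63 in nonTG. KDM1A TG replicate 1 was the lowest of the 8 arrays, and all groups overlapped. The log2 change of KDM1A TG from C57BL/6 was -0.90 (interval -1.60 to -0.19, limma adjusted p = 0.242). It was -0.39 without KDM1A TG replicate 1. Leaving out KDM1A TG replicate 2 instead gave -1.32 (limma adjusted p = 0.0587). With array weights it was -1.58 and passed (limma adjusted p = 0.000311), in a fit that called 1694 of 11444 genes, 225 of them lower. It was -0.11 when the mean of the oviduct markers, highest in KDM1A TG replicate 1 (6.32), entered the model. For nonTG it was -0.60 (interval -1.39 to 0.19, limma adjusted p = 0.693), and 0.145 with the oviduct term.

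Gm8300 had values of 6.23, 4.88 and 5.38 in C57BL/6, 4.95, 5.68 and 5.12 in KDM1A TG, and 4.18 and 5.60 in nonTG. Gm5662 had values of 4.98, 2.83 and 3.63 in C57BL/6, 2.83, 4.24 and 4.56 in KDM1A TG, and 2.59 and 4.31 in nonTG. For both, the highest array was C57BL/6 replicate 1, the lowest was nonTG replicate 1, and the groups overlapped throughout. The spread within groups was larger than any difference between them: the pooled SD was 1.05 for Gm5662, whose changes were between -0.36 and 0.42, and 0.67 for Gm8300, whose changes were between -0.61 and 0.36. Limma's adjusted p values for these 6 changes ran from 0.689 to 0.946. For nonTG against C57BL/6 the changes of Gm8300 and Gm5662 were 0.10 and 0.495 without nonTG replicate 1.

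**Figure D2:**
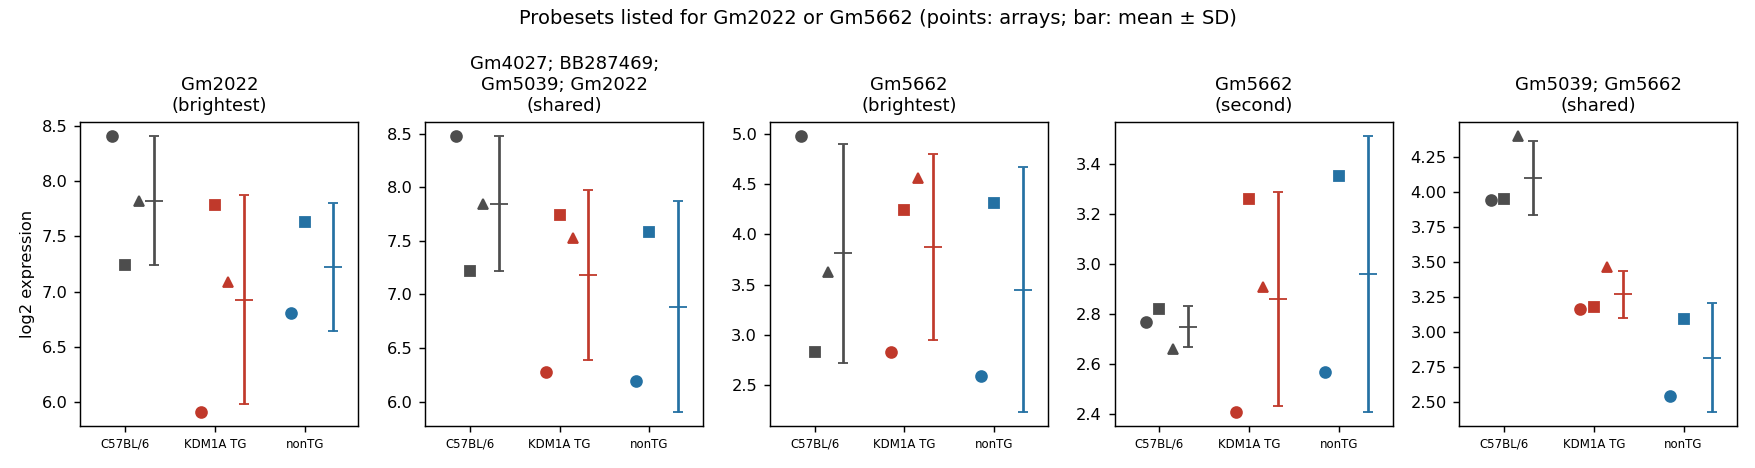
Log2 expression (vertical axis, a separate scale for each panel) of the 5 probesets listed for Gm2022 or Gm5662, by sire group, with arrays as points and mean ± SD as bars. In the probeset shared by Gm5039 and Gm5662 the KDM1A TG and nonTG arrays lie below all C57BL/6 arrays, which is not so in the probesets of Gm5662 alone. Of all tested genes, 5.34% lie so in KDM1A TG and 9.41% in nonTG.

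Several probesets of this cluster read more than 1 gene. One probeset is listed for Gm4027, BB287469, Gm5039 and Gm2022 together, and its values in the 8 arrays, ran from 6.19 to 8.48. In nonTG replicate 1 it read 6.19 where the probeset of Gm2022 alone read 6.81, and in KDM1A TG replicate 3 it read 7.53 and the other 7.09. Its changes from C57BL/6 were -0.67 for KDM1A TG and -0.96 for nonTG, against -0.90 and -0.60 for Gm2022 alone. For KDM1A TG against nonTG the probesets differed in sign, at 0.30 and -0.29, and neither change passed. The probesets of Gm5662 disagreed. A second one carrying Gm5662 alone had values of 2.41 to 3.35, around the array medians of 2.73 to 2.86, and changes of 0.11 and 0.21. The remaining one, listed for Gm5039 and Gm5662, had values of 3.94, 3.95 and 4.40 in C57BL/6, 3.16, 3.18 and 3.46 in KDM1A TG, and 2.54 and 3.09 in nonTG. There the C57BL/6 arrays lay above all others, and the nonTG arrays below all others. Of all tested genes, 5.34% had KDM1A TG below all C57BL/6 arrays, 9.41% had nonTG below them, and 16% had nonTG below all KDM1A TG arrays. The share of single probesets was not counted. In a fit of 16072 single probesets, added after the data were seen, the changes of this shared probeset were -0.83 for KDM1A TG (interval -1.48 to -0.18, limma adjusted p = 0.349) and -1.28 for nonTG (interval -2.01 to -0.55, limma adjusted p = 0.241). This fit called 7 and 0 probesets in these comparisons, and 1 name cannot be given to the shared signal.

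**Figure D3:**
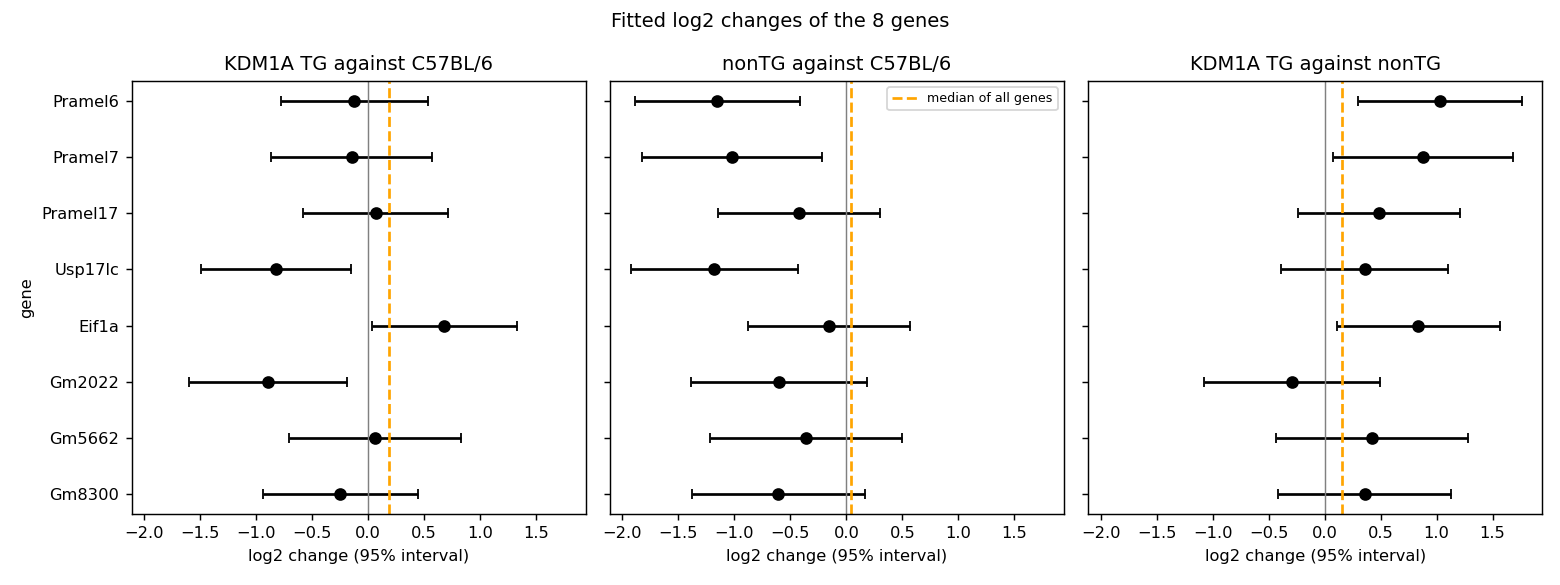
Fitted log2 changes (horizontal axes) with 95% intervals for the 8 genes in the 3 comparisons, each from limma over all 8 arrays. The dashed line is the median of all 11444 genes, and all 8 points of nonTG against C57BL/6 lie below it.

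No member passed limma's test after adjustment in any comparison. Between KDM1A TG and C57BL/6, 0 of 8 members passed, where 83 genes, or 0.725% of all tested, did so. That count was 33, 254 and 30 without C57BL/6 replicates 1, 2 and 3, and 228 and 9 without KDM1A TG replicates 2 and 3. Between nonTG and C57BL/6, 0 of 8 passed, where 15 genes, or 0.131%, did so. That count was 80 without C57BL/6 replicate 2, 31 and 4 without KDM1A TG replicates 1 and 2, and 51 and 3 without nonTG replicates 1 and 2. Between KDM1A TG and nonTG, 0 of 8 passed, where 5 genes, or 0.0437%, did so. That count was 8, 2 and 2 without KDM1A TG replicates 1, 2 and 3, and 17 and 11 without nonTG replicates 1 and 2.

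At an unadjusted limma p under 0.05, members on the lower side were 3 in nonTG against C57BL/6 (Pramel6, Pramel7 and Usp17lc), where 3.62% of all genes were, and 2 in KDM1A TG against C57BL/6 (Gm2022 and Usp17lc), where 2.1% were. On the higher side there was 1 in KDM1A TG against C57BL/6 (Eif1a, with 12.1% of all genes) and there were 3 in KDM1A TG against nonTG (Eif1a, Pramel6 and Pramel7, with 4.97% of all genes). There were 0 on the higher side of nonTG against C57BL/6 (4.61% of all genes) and 0 on the lower side of KDM1A TG against nonTG (1.43%). Groups did not overlap on the lower side of nonTG against C57BL/6 for 2 members, Pramel6 and Usp17lc, and for 9.41% of all genes. They did not overlap on the higher side for Eif1a in KDM1A TG against C57BL/6, where 14.5% of genes did not, and for Eif1a and Pramel6 in KDM1A TG against nonTG, where 16% did not. Such separation was seen for 0 members on the lower side of KDM1A TG against C57BL/6 (5.34% of all genes), on the higher side of nonTG against C57BL/6 (15.4%) and on the lower side of KDM1A TG against nonTG (6.38%). The members' median change from C57BL/6 was -0.14 in KDM1A TG and -0.61 in nonTG, and KDM1A TG stood 0.46 above nonTG, beside medians of 0.18, 0.04 and 0.16 over all genes. The KDM1A TG median was -0.38 after quantile normalization, with 6 of 8 below 0, and 0.37 with the oviduct term, with 6 of 8 above 0. In these fits 40.5% and 39.3% of all genes were below 0. In nonTG all 8 members had a change below 0, where 46.8% of all genes did, and the medians were -0.68 after quantile normalization and -0.79 after cyclic loess, again with all 8 below 0. With the mean of the oviduct markers in the model, Gm2022 and Gm5662 had changes of 0.145 and 0.33 in that comparison. The other 6 were below 0, as were 52.5% of all genes, and the members' median was -0.24. Without nonTG replicate 1, Gm5662 and Gm8300 had changes of 0.495 and 0.10, and without nonTG replicate 2 Eif1a had 0.10, so that all 8 were below 0 in neither case. Without C57BL/6 replicate 1 Gm5662 had 0.22.

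**Figure D4:**
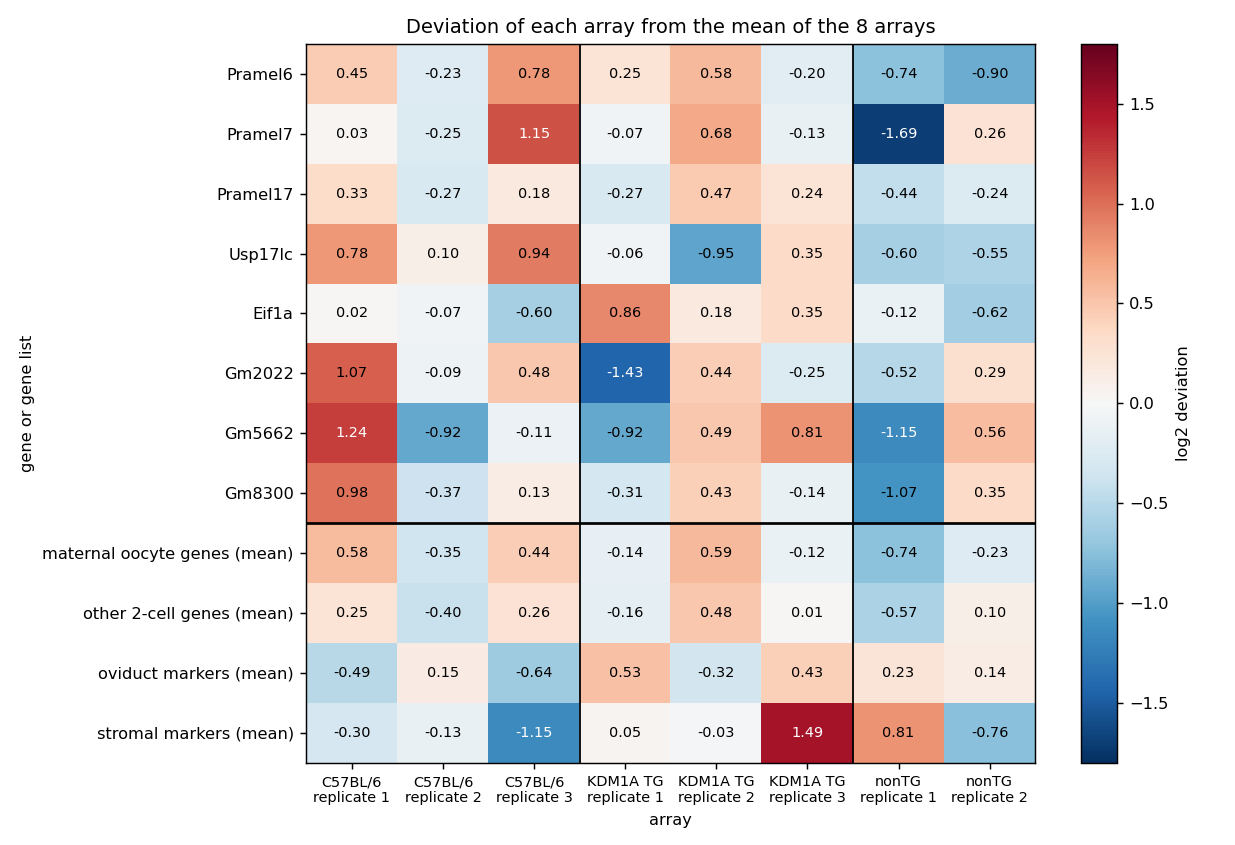
Deviation of each array (columns) from the mean of the 8 arrays, on the log2 scale, for the 8 genes and for the means of 4 gene lists (rows). The lowest column over the 8 genes is nonTG replicate 1, where all 8 are below their own mean, and the highest is C57BL/6 replicate 1, where none is.

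Arrays of the same sire group lay far apart in the mean over the 8 members. The mean deviation of the 8 members from their own means was 0.61 in C57BL/6 replicate 1 and 0.37 in replicate 3, but -0.26 in replicate 2, where 7 of 8 members lay below their mean. In KDM1A TG it was -0.24, 0.29 and 0.13 in replicates 1, 2 and 3. In nonTG it was -0.79 in replicate 1, the lowest array for 4 members, and -0.11 in replicate 2, which was the lowest for 2. The maternal oocyte gene mean followed the same arrays, at 5.54, 4.61 and 5.40 in C57BL/6, 4.82, 5.55 and 4.84 in KDM1A TG, and 4.22 and 4.73 in nonTG. The part of oviduct RNA, maternal RNA or embryo stage in the members' values was not tested.

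Relations over the 8 arrays were computed for the 28 pairs of members and for each member with the oviduct and maternal means, 44 in all. None passed 0.05 after Benjamini-Hochberg adjustment. Gm5662 and Gm8300 had r = 0.85 (exact permutation p = 0.00513, adjusted 0.0826) and rho = 0.83 (exact permutation p = 0.0154, adjusted 0.113), and r = 0.73 without the 2 arrays farthest from the median. Gm2022 and Gm8300 had r = 0.75 (exact permutation p = 0.0347, adjusted 0.181) and rho = 0.81 (exact permutation p = 0.0218, adjusted 0.137), and r = 0.90 without the 2 farthest arrays. Probesets of near-identical copies can share signal, so these values do not separate the genes. Gm2022 was lower where the oviduct mean was higher, with r = -0.84 (exact permutation p = 0.00618, adjusted 0.0826), rho = -0.95 (exact permutation p = 0.00114, adjusted 0.0502) and r = -0.80 without the 2 farthest arrays. Over all 8 arrays the maternal mean had its highest r with Pramel17, 0.89 (exact permutation p = 0.00236, adjusted 0.0826), with rho = 0.90 (exact permutation p = 0.00456, adjusted 0.1). Without the 2 farthest arrays r was 0.77, lower than for Pramel6, Pramel7 and Usp17lc. The mean of Pramel17, log2 2.69, was under the array medians of 2.73 to 2.86. For Pramel6, Pramel7 and Gm8300 r with the maternal mean was 0.85, 0.79 and 0.85 (exact permutation p = 0.0113, 0.0109 and 0.00796, each adjusted 0.0826). Their rho was 0.83, 0.74 and 0.83 (exact permutation p = 0.0154, 0.0458 and 0.0154, adjusted 0.113, 0.183 and 0.113), and r without the 2 farthest arrays was 0.82, 0.95 and 0.73. Usp17lc and Eif1a had the lowest values with the maternal mean, r = 0.36 (exact permutation p = 0.375, adjusted 0.549) and r = -0.03 (exact permutation p = 0.943, adjusted 0.943). Their rho values were 0.24 (exact permutation p = 0.582, adjusted 0.712) and 0.33 (exact permutation p = 0.428, adjusted 0.571), and without the 2 farthest arrays r was 0.86 for Usp17lc and -0.19 for Eif1a.

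The named genes whose values over the 8 arrays were most like the mean profile of the members, measured by Pearson correlation, were Tcl1 (0.99), Gdf9 (0.98), Zbed3 (0.97), Mbtd1 (0.97) and Rbm38 (0.97). Gdf9 encodes an oocyte growth factor and Zbed3 belongs to the subcortical maternal complex. Both are among the maternal oocyte genes that make up the maternal mean, so they do not add to the relations with that mean. Each of these 5 genes was lowest in nonTG replicate 1 and highest in C57BL/6 replicate 1, as is the members' profile. These correlations were picked as the highest of all genes tested and are a description of 8 arrays. Tcl1 ran from log2 4.07 to 6.19, and its nonTG change from C57BL/6 was -1.04 (SE 0.38, limma adjusted p = 0.371).

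**Figure D5:**
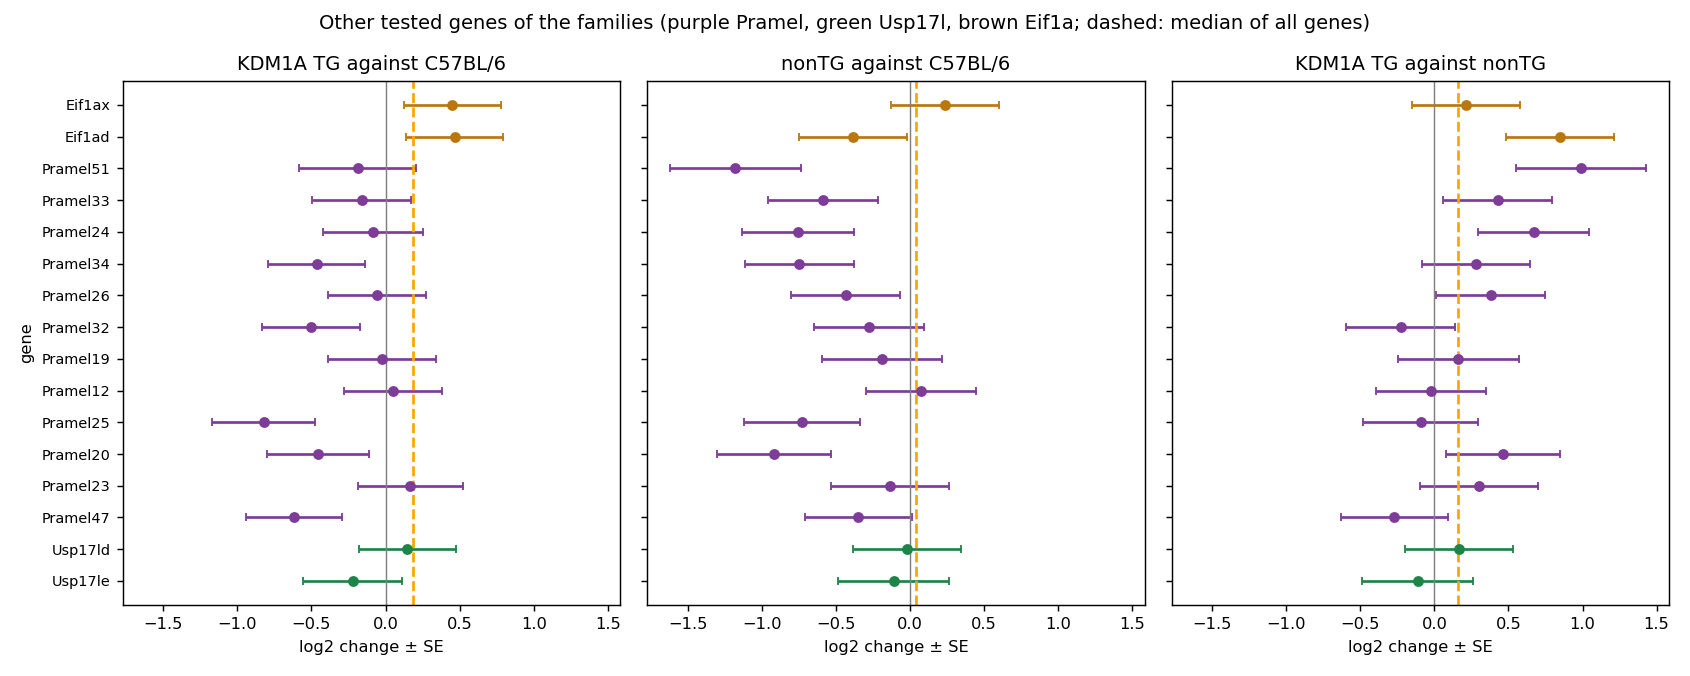
Log2 changes ± SE (horizontal axes) of the 16 other tested genes of the 3 families in the 3 comparisons, with the median of all genes dashed. In nonTG against C57BL/6, 11 of the 12 Pramel genes lie below 0, and the 2 Usp17l genes lie within 0.11 of it.

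Of the other genes of these families, 23 Pramel genes had a probeset of their own and 12 of them were tested. Another 42 probesets carried a Pramel symbol along with other symbols and were not used, since copies of these genes share sequence. None of the 12 passed in any comparison. Their median change from C57BL/6 was -0.51 in nonTG, with 11 of 12 below 0, and -0.175 in KDM1A TG, with 10 of 12 below 0. KDM1A TG stood 0.29 above nonTG, with 8 of 12 above 0. Of all genes, 46.8%, 35.1% and 34.6% were below 0 in these 3 comparisons. After quantile normalization the first 2 medians were -0.58 and -0.41, each with 11 of 12 below 0. With the oviduct term they were -0.18, with 8 of 12 below 0, and 0.175, with 7 of 12 above 0. Of all genes, 45.1% and 40.5% were below 0 after quantile normalization, and 52.5% and 39.3% with the oviduct term. Pramel51, which lies inside the Eif1a-like gene cluster, had values of 7.26, 5.60 and 7.41 in C57BL/6, 5.79, 7.45 and 6.47 in KDM1A TG, and 4.38 and 6.78 in nonTG. Its pattern was like that of Pramel7, with nonTG replicate 1 the lowest array (nonTG change -1.18, SE 0.44, limma adjusted p = 0.379). Pramel33 had a nonTG change of -0.59 (SE 0.37, limma adjusted p = 0.689) and values from 5.07, in nonTG replicate 1, to 6.66, in C57BL/6 replicate 3.

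Of 4 other Usp17l genes, 2 were tested. Usp17ld had nonTG and KDM1A TG changes from C57BL/6 of -0.02 and 0.15 (SE 0.36 and 0.33), and Usp17le of -0.11 and -0.22 (SE 0.37 and 0.33). Neither had a nonTG mean below C57BL/6 by the margin of Usp17lc, but the differences between these genes were not tested. Of the other tested genes with an Eif1a name, Eif1ax, the X-linked copy of the initiation factor gene, had changes of 0.45 in KDM1A TG and 0.24 in nonTG from C57BL/6 (SE 0.33 and 0.37, limma adjusted p = 0.508 and 0.861). Eif1ad, which encodes an Eif1a domain protein, had changes of 0.47 and -0.38 (SE 0.33 and 0.36, limma adjusted p = 0.495 and 0.782). Its KDM1A TG arrays (4.33, 4.5 and 3.92) lay above all others, but the lowest was next to a C57BL/6 array at 3.91. The C57BL/6 values were 3.91, 3.81 and 3.63 and the nonTG values 3.82 and 2.98. Of all genes, 14.5% had every KDM1A TG array above all C57BL/6 arrays, and 16% had every one above both nonTG arrays. The Eif1ad change of KDM1A TG from nonTG was 0.85 (SE 0.36, limma adjusted p = 0.77). For Eif1ax the groups overlapped, and that change was 0.21 (SE 0.365, limma adjusted p = 0.913).

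Among the 22 tested genes of 2-cell activation outside the 3 families, none passed in any comparison. In nonTG against C57BL/6, 14 of 22 had a change below 0, where 46.8% of all genes did, with a median of -0.27. That median was -0.05 with the oviduct term, with 12 of 22 below 0, where 52.5% of all genes were. Without that term, Dppa4 and Tmem92 had the smallest p of the 22 (log2 changes -1.09 and -0.96, SE 0.38 each, limma adjusted p = 0.335 and 0.419). In KDM1A TG against C57BL/6, 11 were above and 11 below 0, with a median of 0.01, and the DNA-binding protein gene Zscan4a (0.91, SE 0.37) and the heat shock gene Hspa1b (0.69, SE 0.34) had the smallest p (limma adjusted p = 0.253 and 0.348). After quantile normalization this median was -0.14 and with the oviduct covariate 0.54. In KDM1A TG against nonTG, 18 of 22 were above 0, with a median of 0.31, and Tmem92 and Dppa4 had changes of 1.14 and 0.92 (limma adjusted p = 0.511 and 0.77). Of all genes, 35.1% and 34.6% were below 0 in KDM1A TG against C57BL/6 and against nonTG. The 15 maternal oocyte genes had medians of -0.17, -0.71 and 0.66 in the 3 comparisons in the order of the members above, with 10 and 14 of 15 below 0 and then 14 of 15 above 0, and none passed. In KDM1A TG against C57BL/6 all 15 were below 0 after quantile normalization (median -0.24), where 40.5% of all genes were. With the oviduct term 14 of 15 were above 0 (median 0.395), where 39.3% of all genes were below 0. The nonTG median was -0.31 with that term. The oviduct markers had medians of 0.55, 0.53 and -0.07, with none passing, and the stromal markers 0.996, 0.61 and 0.41, with 1 of 12 passing, higher in KDM1A TG than in C57BL/6. The cumulus markers had medians of -0.36, -0.25 and -0.17 and the blood markers 0.16, -0.37 and 0.29, with 1 of 8 blood markers passing, lower in KDM1A TG than in C57BL/6. Neither the stromal nor the blood call was kept after quantile normalization, cyclic loess or with the oviduct term. The blood median in KDM1A TG against C57BL/6 was then -0.05, -0.09 and -0.41, and the stromal median of nonTG against C57BL/6 was 0.01 with the oviduct term.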

How the data were processed

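The authors deposited 1 log2 expression value per probeset and array. The submitters' notes list R 3.1.0, oligo, RMA and limma, with no role for any of them, and background correction is not stated. The values were not changed. The platform annotation gives 1 symbol to 15745 of 22961 probesets, several to 1320 and none to 5896. A gene took its brightest probeset with that symbol alone and was tested where its mean passed the level of log2 2.07, the 30th percentile of probeset means. All 8 arrays entered 1 fit in limma 3.58.1 (R 4.3.3; lmFit, eBayes), and two-sided p-values were adjusted by Benjamini and Hochberg's method for 11444 genes, with a threshold of 0.05. The code was tested on simulated data. Correlations were tested over all pairings of the 8 arrays, two-sided.

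The members and lists were chosen with earlier results of these data known. Named were the 8 members, 2 relatives per family by brightness, up to 2 genes of the 2-cell list per comparison by p, and the 5 genes most like the members, leaving out predicted genes, small RNAs and receptor segments. RefSeq tables of GRCm38.p6 gave neighbours and promoters. Alternatives changed the filter, the scaling, the weight of arrays, which arrays were fitted, a block for replicate number, an oviduct term or the choice of probeset.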

Additional observations from a re-analysis of the deposited data

How the results depend on the processing

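Of 429 recomputed member changes, 399 kept their direction and stayed short of the threshold, 28 turned direction and 2 passed it, both with array weights in KDM1A TG against C57BL/6: Gm2022 (-1.58, adjusted p = 0.000311) and Eif1a (0.77, adjusted p = 0.0497). Changing the filter, fitting only the compared groups or leaving out an array of a group not compared cannot alter a change itself. The 399 therefore include repeats of the reported change and do not measure how stable it was. Array weights called 2 members in KDM1A TG against C57BL/6, among 1694 of 11444 genes, and 0 members in the other comparisons. Each other alternative run called 0 members in every comparison. For KDM1A TG against C57BL/6 the 83 called genes became 138 with no filter, 53 with the filter at the 50th percentile, 5 after quantile normalization, 5 after cyclic loess, 1694 with array weights, 5 with the oviduct covariate, and 9 to 254 on leaving out single arrays. For nonTG against C57BL/6 the 15 became 44, 9, 1, 1, 47 and 4 in that order, 6 with only the compared groups, and 3 to 80. For KDM1A TG against nonTG the 5 became 2 with the stricter filter, 2 after quantile normalization, 2 after cyclic loess, 3 with array weights, 3 with the covariate, 3 with the mean of probesets, and 2 to 17. The replicate number as a block gave 76, 23 and 4 genes in the 3 comparisons, and no member was called. The deviations of same-numbered arrays correlated at -0.065, -0.378 and -0.114 between C57BL/6 and KDM1A TG, at 0.007 and -0.252 between C57BL/6 and nonTG, and at 0.113 and 0.179 between KDM1A TG and nonTG. The labels do not say that a number marks a shared source, and the numbers were not taken to pair the pools.

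Directions that turned in KDM1A TG against C57BL/6 were Gm5662 (0.06 as reported) at -0.075 after quantile normalization, -0.12 after cyclic loess and -0.78 with array weights, Pramel17 at -0.215 with array weights, and, with the oviduct covariate, Pramel6 at 0.35, Pramel7 at 0.52 and Gm8300 at 0.29. In nonTG against C57BL/6, the covariate gave Gm2022 0.145 and Gm5662 0.33. Leaving out single arrays gave, in KDM1A TG against C57BL/6, ranges of -0.405 to 0.10 (Pramel6), -0.43 to 0.27 (Pramel7), -0.11 to 0.28 (Pramel17), -0.43 to 0.65 (Gm5662) and -0.56 to 0.12 (Gm8300). In nonTG against C57BL/6 they were -0.41 to 0.10 (Eif1a), -1.22 to 0.495 (Gm5662) and -1.32 to 0.10 (Gm8300). In KDM1A TG against nonTG they were -0.10 to 1.85 (Pramel7), -0.72 to 0.21 (Gm2022), -0.43 to 1.28 (Gm5662) and -0.35 to 1.07 (Gm8300). The cause was not tested. Leaving out 1 nonTG array leaves 1, assumed to vary like the other groups. Pramel17 was not tested under the stricter filter. Scanner files were not used here, so signal over background is unknown.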
